A study of Mus musculus with 6 samples.

Results

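The skeletal muscle genes of neonatal mouse back skin are described here: 38 genes for the contractile filaments, the calcium machinery and the myogenic factors of striated muscle. They were chosen by gene symbol, and each gene is read from its brightest probe set, averaged over the 6 arrays, among those annotated to a single gene. All 38 were measured, among 18193 genes in all, and none was removed by a filter on low values. Expression was measured with 1 Affymetrix array per animal, and values are log2 of normalised intensities unless stated otherwise. Back skin came from 6 female mice of 1 litter on a mixed FVB/N and C57BL/6 background, at postnatal day 2.5. In 3 mice, labelled K5cre-caNrf2 (tg/tg), a Cre recombinase under the keratin 5 promoter was combined with a constitutively active Nrf2 (caNrf2), a transcription factor of antioxidant defence. The 3 control mice are labelled K5cre-wt (tg/wt). The sample descriptions of both groups also carry the word weak, which the labels do not explain. The keratin 5 promoter is active in basal keratinocytes, so muscle fibres are not the cells the transgene is aimed at. The design asks how skin with an active Nrf2 in its epidermis differs from control skin, and the muscle genes report on a tissue beneath it.

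Mouse back skin carries a thin sheet of striated muscle under the fat layer, the panniculus carnosus, which twitches the skin. In striated muscle, myosin of the thick filament pulls on actin of the thin filament when calcium released from the sarcoplasmic reticulum binds troponin. Around birth, fibres replace embryonic and neonatal myosins and troponins by adult fast or slow isoforms, so the isoforms mark fibre age and type. How much of this sheet a skin sample holds depends on the animal and on the depth at which the skin is cut.

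After normalisation, which equalises array distributions, the medians over all probe sets were 80.7 to 81.9 intensity units. Correlations between arrays were 0.9978 to 0.9980 among controls and 0.9961 to 0.9969 among caNrf2 arrays. Their number, 3 per group, limits the precision. As a check of the labels, Nqo1, a quinone reductase and classical Nrf2 target, measured 6.20, 5.90 and 5.67 on control arrays 1 to 3 and 9.46, 9.70 and 9.42 on caNrf2 arrays 1 to 3 (limma adjusted p = 2.70e-07). Nfe2l2, the Nrf2 gene itself, measured 9.36, 9.40 and 9.42 against 9.91, 9.75 and 9.75, with no overlap, and did not pass (adjusted p = 0.0539). The 6 listed keratinocyte genes, Krt5, Krt14 and Krt10 among them, lay between 11.38 and 14.33 in every sample, and Xist lay at 12.33 to 12.58, as female skin should. The 3 Y-linked genes measured, which are silent here, lay between 2.94 and 3.95. No muscle gene was at or below their highest value on any array, although 3 of the 38 (Myh2, Myh7 and Myl2) had a mean under the 6.35 of the median probe set.

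Promoters of 4 genes are shown because they carry the letters that myogenic and muscle factors are known to bind, and because these genes stand for an actin, an adult fast myosin, a neonatal myosin and a calcium store protein. Sequences are from RefSeq, build GRCm38.p6, 250 bases before to 50 bases after the listed gene start, 5′ to 3′ on the gene's strand, and RefSeq promoters were found for 33 of the 38 genes. Capitals mark the myogenic E-box core CAGCTG, the MEF2 box, the CArG box bound by serum response factor, and the TATA box TATAAA, each searched on both strands.
Acta1, chr8:123894726-123895025, minus strand: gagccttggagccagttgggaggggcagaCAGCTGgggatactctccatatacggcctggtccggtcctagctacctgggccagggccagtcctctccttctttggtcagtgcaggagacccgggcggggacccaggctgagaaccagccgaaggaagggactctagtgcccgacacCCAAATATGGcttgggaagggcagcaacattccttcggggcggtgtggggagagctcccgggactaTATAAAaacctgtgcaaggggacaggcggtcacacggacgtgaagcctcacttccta
Myh4, chr11:67237562-67237861, plus strand: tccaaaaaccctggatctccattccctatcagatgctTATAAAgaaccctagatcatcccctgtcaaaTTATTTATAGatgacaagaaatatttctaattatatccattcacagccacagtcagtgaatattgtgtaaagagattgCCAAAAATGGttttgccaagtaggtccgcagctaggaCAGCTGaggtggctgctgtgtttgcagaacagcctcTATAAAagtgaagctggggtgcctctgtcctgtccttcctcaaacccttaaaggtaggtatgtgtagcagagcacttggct
Myh8, chr11:67276874-67277173, plus strand: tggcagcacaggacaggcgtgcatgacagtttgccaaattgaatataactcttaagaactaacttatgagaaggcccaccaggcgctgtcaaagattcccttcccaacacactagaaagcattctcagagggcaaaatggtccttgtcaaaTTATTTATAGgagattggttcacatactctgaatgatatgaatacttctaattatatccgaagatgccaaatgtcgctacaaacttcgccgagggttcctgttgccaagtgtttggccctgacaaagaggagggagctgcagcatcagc
Casq2, chr3:102086165-102086464, plus strand: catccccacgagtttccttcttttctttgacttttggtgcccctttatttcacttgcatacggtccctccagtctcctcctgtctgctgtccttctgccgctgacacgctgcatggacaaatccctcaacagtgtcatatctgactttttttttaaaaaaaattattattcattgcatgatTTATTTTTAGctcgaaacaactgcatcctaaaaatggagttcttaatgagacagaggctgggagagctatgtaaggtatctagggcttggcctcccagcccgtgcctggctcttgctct

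The MEF2 box of Myh4 and of Myh8 has the same letters and overlaps a TATAAA match on the other strand. Over the 33 promoters, taking the first listed start of a gene, CAGCTG stood in 14 (42.4%, against 16.1% of 27025 promoters in all) and the MEF2 box in 6 (18.2% against 3.26%). The CArG box stood in 4 (12.1% against 1.57%), TATAAA in 9 (27.3% against 14.2%) and the wider E-box CANNTG in 28 (84.8% against 72.1%). Each CAGCTG is also a CANNTG. A match describes letters and not a bound site, and no binding was measured.

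No muscle gene passed the threshold between caNrf2 and control skin. Of the 38 genes 0 were called at an adjusted p under 0.05 (limma over all genes), against 0.374% of all genes (0.346% higher and 0.0275% lower), and 1, Myh7, at an unadjusted p under 0.05, against 8.09% of all genes. The median log2 difference was 0.03, with 27 genes higher and 11 lower, and the median of all genes was -0.01. Differences ran from -0.17 for Myh2 to 0.44 for Myh7. In the probe sets used, the groups overlapped for each of the 38 genes, whereas 13.1% of all genes had groups that did not overlap. For 34 of the 38 the 95% interval of the difference lay within 1.5-fold in either direction, and it reached past that size for Myh7, Tnnc1, Myl2 and Myh4. In whole skin, a change in the number of muscle fibres and a change in RNA per fibre cannot be told apart.

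**Figure D1:**
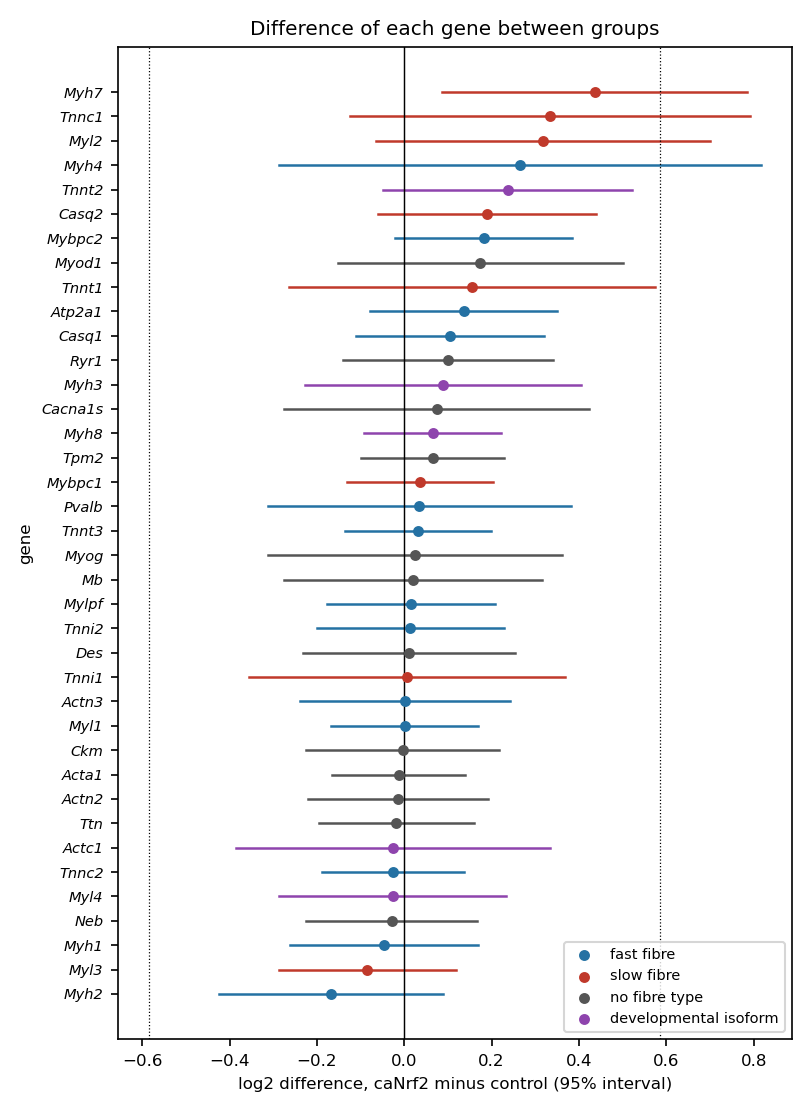
Log2 difference of each of the 38 muscle genes, caNrf2 minus control (points), with its 95% interval from limma (lines, 3 arrays per group), coloured by fibre type; dotted lines mark a 1.5-fold difference. The intervals of 34 genes lie between the dotted lines, and the slow myosin gene Myh7, at 0.44, is the highest.

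The thick filament had 13 genes, with a median difference of 0.04, and 9 of the 13 were higher in caNrf2 skin. Myh7, the slow myosin heavy chain, which the heart also uses, measured 5.80, 5.89 and 5.73 on control arrays 1 to 3 and 5.81, 6.38 and 6.54 on caNrf2 arrays 1 to 3. Its caNrf2 arrays 2 and 3 were thus above every control, while caNrf2 array 1 lay among the controls. The difference of 0.44 ± 0.16 (SE) did not pass (adjusted p = 0.503), and without caNrf2 array 1 it was 0.65 and passed (adjusted p = 0.0141). With any other array left out it was 0.29 to 0.48 and did not pass, no other muscle gene was called when 1 array was left out, and over all alternatives run the adjusted p of Myh7 ranged from 0.0141 to 0.922.

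The genes of 5 further myosin heavy chains follow each other on chromosome 11 of assembly GRCm38.p6, in the order Myh3, Myh2, Myh1, Myh4 and Myh8, with no other protein-coding gene between them. They did not vary as one. Myh3, the embryonic myosin, measured 9.47, 9.46 and 9.31 on the control and 9.14, 9.54 and 9.81 on the caNrf2 arrays, so that the caNrf2 arrays held the lowest and the 2 highest values. Myh8, the neonatal myosin, whose promoter is shown above, lay within 0.01 of 13.22 on the control arrays and measured 13.22, 13.26 and 13.37 on the caNrf2 arrays. Myh4, the fastest adult myosin (type IIB), measured 8.0, 6.86 and 6.93 on the control and 7.61, 7.31 and 7.67 on the caNrf2 arrays. Control array 1 was highest here, and the range of 1.13 over the 6 arrays was the widest of the 38 genes. A second, dimmer Myh4 probe set had the same order among controls, at 6.02, 5.17 and 5.24. Myh2 and Myh1, the adult IIA and IIX myosins, differed by -0.17 ± 0.12 and -0.05 ± 0.10.

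**Figure D2:**
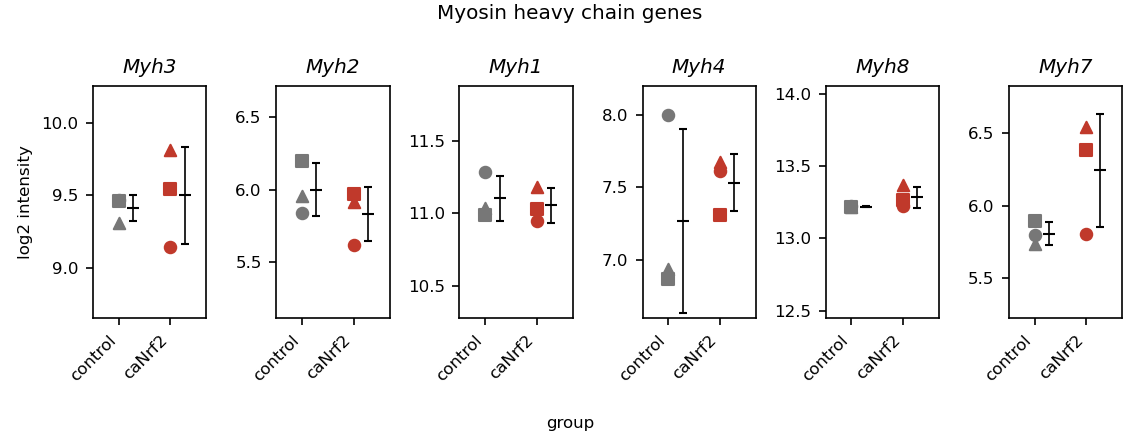
Log2 intensity of the myosin heavy chain genes on each array, the 5 chromosome 11 genes in their order and then Myh7, with controls in grey and caNrf2 in red (circle, array 1; square, array 2; triangle, array 3) and the mean ± SD beside each group. All panels span the same log2 range about the gene's own mean; control array 1 stands at 8.0 for Myh4, and caNrf2 arrays 2 and 3 lie above the controls for Myh7.

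The myosin light chains and myosin-binding proteins of the thick filament differed by little. Myl1 and Mylpf, the fast alkali and regulatory light chains, differed by 0.00 and 0.02, and Myl4, an embryonic and atrial light chain, by -0.03. Myl2, the slow and ventricular regulatory light chain, differed by 0.32 ± 0.17 but was dim, at 4.12 to 4.90 on the control arrays. Myl3, the slow light chain, differed by -0.09. Mybpc2, the fast myosin-binding protein C, differed by 0.18 ± 0.09 (adjusted p = 0.661), and its slow counterpart Mybpc1 by 0.04.

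Of the 11 thin filament genes 7 were higher in caNrf2 skin, with a median of 0.01. Acta1, the skeletal actin, measured 14.11, 14.07 and 14.11 on the control and 14.03, 14.11 and 14.11 on the caNrf2 arrays. The highest probe set of any array lay between 14.31 and 14.38, so Acta1 was near the top of the scale, and its range of 0.09 was the smallest of the 38 genes. Across the 8 muscle genes with a mean of at least 12 the range over the 6 arrays had a median of 0.18, and across the 30 others 0.50. Whether bright probes compress differences was not tested. Actc1, the cardiac actin that young skeletal fibres also make, measured 11.93, 11.74 and 11.72 on the control and 11.39, 11.74 and 12.18 on the caNrf2 arrays.

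The troponins set the calcium response of the thin filament, with separate genes for the slow and the fast fibre. Tnnc1, the slow and cardiac calcium-binding subunit, had the largest thin filament difference, 0.33 ± 0.21 (adjusted p = 0.728), with 7.23, 7.18 and 6.97 on the control and 6.87, 7.63 and 7.88 on the caNrf2 arrays. Its caNrf2 arrays thus fell on either side of the controls. Tnni1, the slow inhibitory subunit, measured 8.08, 7.98 and 7.93 against 7.63, 7.94 and 8.43, with caNrf2 array 1 below, array 2 within and array 3 above the controls, and its difference was 0.01 ± 0.16. Tnni2, the fast inhibitory subunit, measured 12.59, 12.56 and 12.60 on the control and 12.38, 12.65 and 12.76 on the caNrf2 arrays. Tnnt2, the cardiac and embryonic tropomyosin-binding subunit, had the smallest p of the thin filament at 0.24 ± 0.13 (adjusted p = 0.690), with 8.15, 8.07 and 7.96 against 7.99, 8.34 and 8.57. Tnnt1, its slow counterpart, differed by 0.16 ± 0.19 and Tnnt3, the fast one, by 0.03. The fast calcium-binding subunit Tnnc2, nebulin (Neb), which runs along the thin filament, and tropomyosin Tpm2 differed by -0.03, -0.03 and 0.06.

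The 4 scaffold genes of the sarcomere differed by -0.02 to 0.01, with a median of -0.01. Ttn, titin, the spring that spans the sarcomere, measured 12.05, 11.94 and 12.03 on the control and 11.90, 11.95 and 12.11 on the caNrf2 arrays, a difference of -0.02 ± 0.08. Des, desmin, the intermediate filament of muscle, which smooth muscle makes too, measured 10.90, 10.84 and 10.93 against 10.63, 11.04 and 11.04. Here again caNrf2 array 1 was lowest and the other 2 caNrf2 arrays were highest. In a dim second Des probe set caNrf2 array 1, at 4.30, was above caNrf2 arrays 2 and 3, at 4.07 and 4.13. Actn2 and Actn3, the alpha-actinins of the Z disc, differed by -0.01 and 0.00.

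All 6 calcium genes were higher in caNrf2 skin, by 0.03 to 0.19 with a median of 0.10, and none passed. Of all 18193 genes 8582 were higher. The sign could change with 1 array left out: Pvalb differed by -0.13 without control array 3, and Cacna1s by -0.05 without caNrf2 array 2. Atp2a1, the fast-fibre pump that returns calcium to the store, measured 11.63, 11.60 and 11.61 on the control and 11.52, 11.86 and 11.87 on the caNrf2 arrays. Ryr1, the calcium release channel, measured 9.39, 9.44 and 9.41 against 9.24, 9.67 and 9.63, and its second probe set had the same order among caNrf2 arrays, with array 1 far below the other two at 8.55 against 9.35 and 9.34. In both genes the controls lay close together and the caNrf2 arrays on either side of them. Casq2, the slow and cardiac calsequestrin that holds calcium in the store, had the largest difference of these genes, 0.19 ± 0.11 (adjusted p = 0.717), and measured 10.03, 9.94 and 9.91 against 9.94, 10.09 and 10.42. Casq1, the fast calsequestrin, and Cacna1s, the voltage sensor of the fibre membrane, differed by 0.10 and 0.07. Pvalb, parvalbumin, the calcium buffer of the fastest fibres, measured 8.19, 7.71 and 7.44 on the control and 7.76, 7.93 and 7.75 on the caNrf2 arrays, so that control array 1 was highest, as for Myh4.

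Energy supply and myogenic control showed the same arrangement of the 6 animals. Ckm, muscle creatine kinase, measured 13.02, 12.93 and 13.00 on the control and 12.75, 13.12 and 13.08 on the caNrf2 arrays, and the difference of the means was 0.00 ± 0.10. Mb, the oxygen store myoglobin, measured 7.76, 7.78 and 7.47 against 7.38, 7.84 and 7.85. Myog, myogenin, which drives the fusion and differentiation of myoblasts, measured 8.24, 8.18 and 8.31 against 7.85, 8.37 and 8.57. Myod1, which commits cells to the muscle lineage, measured 6.74, 6.53 and 6.87 against 6.52, 7.11 and 7.03, a difference of 0.17 ± 0.15 (adjusted p = 0.817). In the probe sets used for these 4 genes caNrf2 array 1 was the lowest of all 6 arrays and caNrf2 arrays 2 and 3 were above every control. Dimmer second probe sets of Ckm, Mb and Myod1 did not show this. For Ckm caNrf2 array 1, at 6.37, was above every control (6.22 to 6.35). For Mb the caNrf2 arrays, at 4.67, 4.83 and 4.62, were all below the controls (4.84 to 5.01). For Myod1 all values were as low as those of silent genes, and caNrf2 arrays 2 and 3 were lowest, at 2.78 and 2.75.

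The muscle genes varied together among the caNrf2 animals. caNrf2 array 1 was the lowest of the 3 caNrf2 arrays for 33 of the 38 genes (86.8%, against 40.6% of all genes), and it was below every control for 26 (68.4% against 35.7%). caNrf2 array 3 was the highest of the 3 for 27 (71.1% against 28.2%), and caNrf2 arrays 2 and 3 were both above every control for 20 (52.6% against 16.5%). Averaged over the 38 genes, caNrf2 arrays 1 to 3 stood at -0.14, 0.13 and 0.22 relative to the control mean, and control arrays 1 to 3 at 0.06, -0.02 and -0.05. Over all genes the same means lay between -0.02 and 0.00 for all 6 arrays. The normalisation equalises array distributions, so all-gene means near 0 follow largely from it. These counts describe 6 animals, and genes of 1 tissue are not independent replicates.

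**Figure D3:**
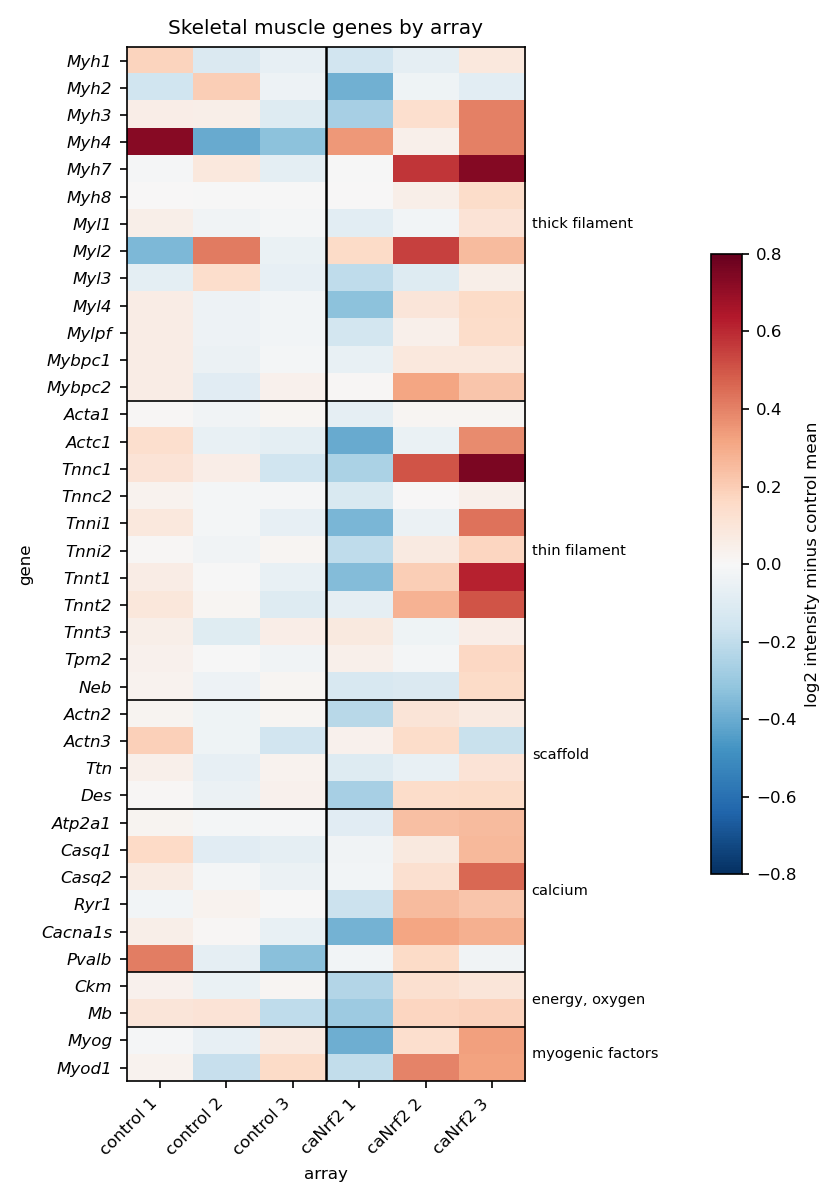
Log2 intensity minus the control mean for each of the 38 genes (rows, grouped by role) on each array (columns). caNrf2 array 1 is the lowest caNrf2 array for 33 genes and caNrf2 array 3 the highest for 27, and control array 1 stands out for Myh4 and Pvalb.

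Spread within the groups differed accordingly. The SD over 3 arrays was larger in caNrf2 than in control skin for 31 of the 38 genes (81.6%), and for 68.2% of all genes. Its median over the 38 genes was 0.06 in control and 0.20 in caNrf2 skin, and over all genes 0.07 and 0.11. Myh8, Acta1, Ryr1 and Atp2a1 had control SDs of 0.01 to 0.03, and Tnnc1 had the largest caNrf2 SD, 0.52. Exceptions with a wider spread among controls included Myh4 (0.63 against 0.20), Myl2 (0.39 against 0.20) and Pvalb (0.38 against 0.10).

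**Figure D4:**
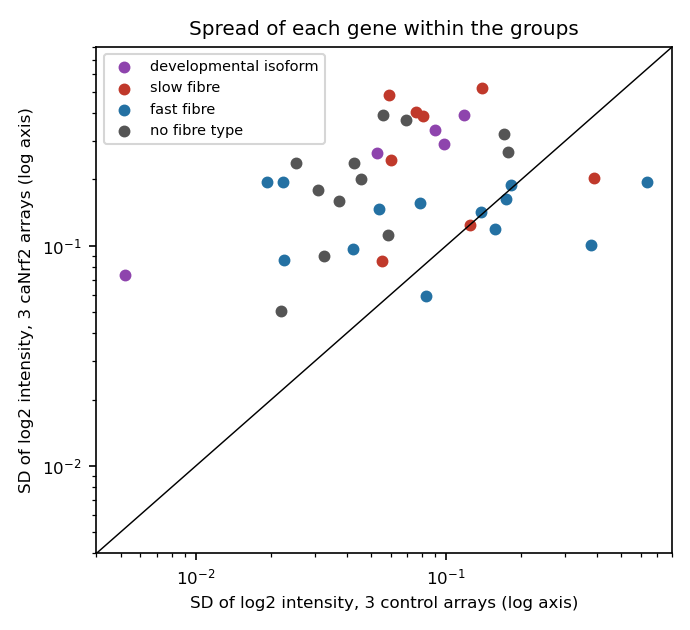
SD of log2 intensity over the 3 control arrays (horizontal) and the 3 caNrf2 arrays (vertical) for each of the 38 genes, both axes logarithmic, with the line of equal spread. For 31 genes the point lies above the line; Myh4, at 0.63 and 0.20, lies farthest to the right.

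Leaving out single arrays moved the median of the muscle genes to either side of 0. Without caNrf2 array 1 it was 0.14, with 35 of 38 genes higher, and without caNrf2 array 3 it was -0.04, with 17 higher. Without caNrf2 array 2 it was 0.01. Leaving out control array 1, 2 or 3 gave 0.07, 0.00 and 0.03. The sign of the median thus rests on single animals.

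By fibre type, the list means of slow and developmental genes spread over a wider range of the caNrf2 animals than that of fast genes. The 8 slow genes averaged -0.14, 0.24 and 0.42 on caNrf2 arrays 1 to 3 relative to the control mean, and -0.01, 0.08 and -0.07 on the control arrays. The 5 developmental isoforms (Myh3, Myh8, Myl4, Actc1 and Tnnt2) averaged -0.21, 0.10 and 0.32 on the caNrf2 arrays and 0.07, -0.01 and -0.06 on the control arrays. The 13 fast genes averaged -0.06, 0.07 and 0.11 on the caNrf2 arrays and 0.14, -0.06 and -0.07 on the control arrays. Median differences between the groups were 0.17 for slow, 0.06 for developmental and 0.02 for fast genes, and without caNrf2 array 1 the slow median was 0.35 and the fast median 0.06. Without caNrf2 array 3 the slow median was 0.03.

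The slow mean minus the fast mean put the animals in an order that crossed the groups. It was -0.15, 0.14 and 0.01 on control arrays 1 to 3 and -0.08, 0.16 and 0.31 on caNrf2 arrays 1 to 3. Control array 1 was the lowest. It was the highest of the 6 arrays for 4 of the 13 fast genes (30.8%, against 13.3% of all genes). These were Myh1, Myh4, Actn3 and Pvalb. caNrf2 array 3 was the highest, and it was the top array for 6 of the 8 slow and all 5 developmental genes (18% of all genes). By list medians, control array 1 stood at 0.06 for slow and 0.06 for fast genes, and caNrf2 array 1 at -0.13 and -0.08. The lowest place of control array 1 thus holds for list means and not for list medians. Of the 8 genes with a mean of at least 12, where ranges were smaller, 5 are fast and none is slow, and the part of signal level in this contrast was not tested.

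**Figure D5:**
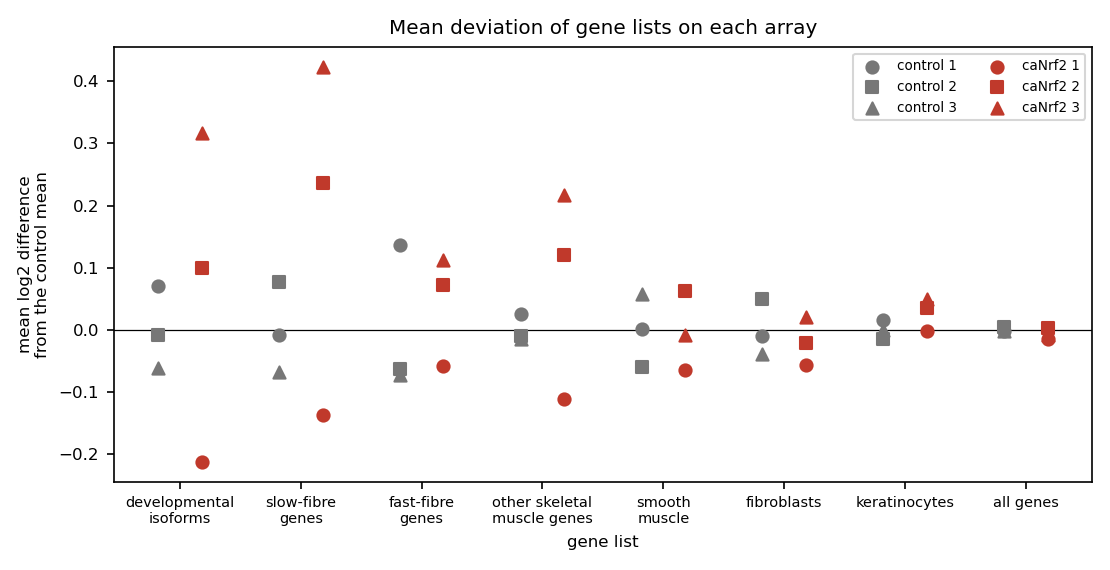
Mean log2 deviation from the control mean of gene lists on each array (controls grey, caNrf2 red; circle, array 1; square, array 2; triangle, array 3). For slow-fibre genes the caNrf2 arrays spread from -0.14 to 0.42, while fibroblast, keratinocyte and all-gene means stay between -0.06 and 0.05.

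A further 70 measured skeletal muscle genes, of 77 listed, showed the same order of animals. Relative to the control mean they averaged -0.11, 0.12 and 0.22 on caNrf2 arrays 1 to 3 and 0.03, -0.01 and -0.02 on the control arrays. None passed the threshold, and 7 of the 70 had an unadjusted p under 0.05, against 8.09% of all genes. In caNrf2 skin 58 of the 70 were higher, with a median of 0.08, against 8582 of all 18193 genes. By role the medians were 0.09 for 23 other sarcomere genes, 0.07 for 13 calcium and membrane excitation genes, 0.06 for 10 energy genes, 0.04 for 8 genes of the nerve-muscle synapse, 0.03 for 5 fibre membrane genes and 0.11 for 11 myogenic and satellite cell genes. Groups did not overlap for 4 higher and 2 lower genes of the 70, against 6.23% and 6.88% of all genes. The median without caNrf2 array 3 was 0.00 and without caNrf2 array 1 it was 0.19.

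The 4 of these with the smallest p were all dim or modest in level. Myf5, the earliest myogenic factor, measured 3.90, 4.23 and 4.12 on the control and 4.31, 4.55 and 4.86 on the caNrf2 arrays, with no overlap, but it lay close to the silent Y-linked genes (0.49 ± 0.13, adjusted p = 0.314). Pax3, a factor of muscle progenitors that melanocytes express as well, measured 7.21, 7.07 and 7.24 against 7.52, 7.28 and 7.44 (0.24 ± 0.09, adjusted p = 0.487). Chrne, the adult subunit of the acetylcholine receptor, and Clcn1, the muscle chloride channel, were below every control on every caNrf2 array, with differences of -0.26 ± 0.08 (adjusted p = 0.424) and -0.25 ± 0.10 (adjusted p = 0.539). caNrf2 array 1 was the nearest to the controls for both, at 5.29 for Chrne and 5.85 for Clcn1, while arrays 2 and 3 measured 5.01 and 5.11 for Chrne and 5.49 and 5.54 for Clcn1.

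Set relative to the mean of these 70 genes on each array, the muscle genes spread less. The median SD became 0.05 in control and 0.11 in caNrf2 skin, against 0.06 and 0.20 before. In that fit 0 of the 38 genes were called (0.181% of all genes), 1 had an unadjusted p under 0.05 (5.08% of all genes), and the median difference was -0.05. That 1 gene was Myh7, at 0.36 ± 0.13 (adjusted p = 0.922), where its groups no longer overlapped, at 5.81, 5.94 and 5.79 against 5.95, 6.30 and 6.36. Groups also did not overlap for Atp2a1 (higher, 0.06), Tnni2 (lower, -0.06) and Tnnc2 (lower, -0.10), which makes 4 of the 38 genes, a share near the 9.62% of all genes in that fit. The ratio shows unequal change within an array and not which of its terms changed.

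Markers of other cells that share these genes or lie near the muscle were measured beside them. Smooth muscle also makes Des and Tpm2, and its 10 listed genes had a median of -0.02, with 0 called, and summed intensities of 7987 to 8737 on the control and 8025 to 8808 on the caNrf2 arrays. They averaged -0.06, 0.06 and -0.01 on caNrf2 arrays 1 to 3. Of these 10, groups did not overlap for 1, Actg2, which was lower (-0.13 ± 0.07, adjusted p = 0.694), against 13.1% of all genes. Of 6 heart genes none was called, and the atrial hormone Nppa and the heart myosin Myh6 lay at 3.46 to 3.91, within the values of the silent Y-linked genes. The other 4 lay above those, at 4.41 to 4.67 for Tnni3, 5.17 to 5.55 for Nppb, 5.30 to 5.95 for Myl7 and 5.90 to 6.28 for Nkx2-5. Myl7, the atrial light chain, differed by 0.31 ± 0.11 (adjusted p = 0.503), with overlapping groups. Nkx2-5, a factor of heart development, differed by -0.23 ± 0.08 (adjusted p = 0.491), with groups that did not overlap, as for 13.1% of all genes. Summed intensities of the 6 were 207 to 221 on the control and 205 to 213 on the caNrf2 arrays.

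One brown fat marker stood apart in 1 animal. Ucp1, the uncoupling protein of brown fat, measured 4.67, 4.55 and 4.28 on the control and 4.54, 4.74 and 6.99 on the caNrf2 arrays, so it stood out on caNrf2 array 3, where slow and developmental muscle genes were highest (0.92 ± 0.50 between groups, adjusted p = 0.690). The other 3 of the 4 brown fat genes, Cidea, Dio2 and Prdm16, differed by -0.09, -0.02 and -0.07. Summed intensities of the 4 were 1001 to 1088 on the control and 991 to 1079 on the caNrf2 arrays. Cidea, at 9.43 to 9.80, made up most of these sums, so they barely register Ucp1. On caNrf2 array 3 the 4 genes averaged 0.58 above the control mean, with a median of 0.06. White fat genes, 6 of 8 measured, had a median of -0.07 and summed to 27382 to 30728 on the control and 27450 to 28003 on the caNrf2 arrays. The 6 keratinocyte and 6 fibroblast genes had medians of 0.03 and 0.00, with 0 called. The 3 endothelial genes, Pecam1, Cdh5 and Kdr, had a median of -0.12, with 0 called. They averaged 0.06, -0.04 and -0.02 on the control and -0.07, -0.06 and -0.18 on the caNrf2 arrays, so that these list means did not overlap. Cdh5, a junction protein of vessels, differed by -0.17 ± 0.08 (adjusted p = 0.615). Its groups did not overlap, as for 13.1% of all genes. Groups overlapped for Pecam1 (-0.02) and Kdr (-0.12). The 3 Schwann cell genes measured had a median of -0.01, with 0 called, and their list means overlapped. Groups did not overlap for 1 of the 3, S100b, which was higher (0.13 ± 0.08, adjusted p = 0.710). The part of these cells in the muscle values was not tested.

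RNA quality can be read from the log2 difference of 3 prime and 5 prime control probe sets. For Gapdh it was -0.215, -0.203 and -0.182 on control arrays 1 to 3. On caNrf2 arrays 1 to 3 it was -0.234, -0.222 and -0.237, so every caNrf2 array lay below every control. Among these, caNrf2 array 1 lay between caNrf2 arrays 2 and 3. The difference shifted by -0.03 between the groups (exact two-sided permutation p = 0.1, and groups of 3 allow no lower value). For Actb the shift was 0.00 (exact permutation p = 1), with 0.50, 0.49 and 0.49 on the control and 0.54, 0.44 and 0.51 on the caNrf2 arrays. The Actb value was thus highest of all 6 on caNrf2 array 1, where most muscle genes were lowest, and lowest on caNrf2 array 2. The part of the Gapdh and Actb differences in the muscle values was not tested.

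The 38 genes had 63 probe sets in all, and 14 genes had more than 1. None of the 63 was called in the fit of all probe sets (0.24% called), with the smallest adjusted p 0.218 for a dim Tnnt2 probe set at 0.40 ± 0.09. Of the 25 further probe sets 12 had the opposite sign to the one used, 4 of them among the 13 brighter than the median probe set. Ttn had 6 probe sets, with differences from -0.09 to 0.25. Groups did not overlap for further probe sets of Tpm2, Ckm and Tnnt2 (higher) and of Mb (lower). The share over all genes, in the probe sets used, was 13.1%. The Tpm2 one was bright, at 11.37, 11.33 and 11.37 on the control and 11.42, 11.39 and 11.42 on the caNrf2 arrays. The probe sets used for Myh1, Tnnt2, Tpm2 and Casq2 are of kinds that can also bind other transcripts, which matters for families as alike as the myosins.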

How the data were processed

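Total RNA from 3 control and 3 caNrf2 back skins was labelled by a one-cycle protocol for Affymetrix arrays, per the labels' protocols. For each array the authors deposited linear intensities of the probe sets, made with RMA per the submitters' processing notes. RMA subtracts background, equalises array distributions and summarises probes, which would hide a change common to most genes. Its version is not given in the sources used here. Columns of other series numbered 0.

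Intensities were converted to log2. The 64 Affymetrix control probe sets among 45101 were not fitted. The platform annotation gave 1 symbol for 34945 of the others, several for 932 and none for 9160. The test was limma (version 3.58.1, under R 4.3.3; lmFit and eBayes, 4 residual degrees of freedom, no block) over 18193 genes, Benjamini-Hochberg adjusted, threshold 0.05. Fold changes are caNrf2 over control. The fit was tested on simulated arrays.

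The members, roles, fibre types and lists were chosen with earlier results of these data known. Per-array values are given for each role's largest difference and smallest p, for Acta1, Myh3, Myh8, Myh4, Myh7, Tnni1, Tnni2, Ckm, Atp2a1, Ryr1, Des, Myog and Myod1, and for the 4 other muscle genes of smallest p. Actc1, Pvalb and Ucp1 were added after their values were seen. Alternatives are given in the closing section. The labels do not say whether equal replicate numbers pair animals, and the main fit treated them as unpaired.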

Additional observations from a re-analysis of the deposited data

How the results depend on the processing

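The number of muscle genes called was 0 under every alternative but 1, and 1 without caNrf2 array 1 (0 to 1 over the arrays left out). Over all genes 68 were called, 41 to 89 with 1 array left out (41, 43 and 45 without control array 1, 2 or 3). The other settings gave 60 to 94. They were array weights, robust eBayes, an intensity trend, a pseudocount of 16, probe sets averaged per gene, dim genes removed, and arrays centred on the median, quantile normalised again or blocked by replicate. With the replicate block, which is no pairing known from the design, 61 were called, and 0 muscle genes. Deviations of equally numbered arrays correlated at -0.20 to 0.04, and 1 of the 6 arrays correlated best with its own number. The median of the muscle genes, 0.03, ranged from -0.04 to 0.14 with 1 array left out and from -0.05 to 0.10 otherwise, and the median of the other muscle genes from 0.00 to 0.19 and from 0.04 to 0.15. Among 284 values of the 18 muscle genes followed, 43 from 10 genes changed sign, all of them uncalled, and Myh7 without caNrf2 array 1 was the only call. Precision is limited by having 3 arrays in each group, and the signals of Myl2 and Myf5 lay close to those of silent genes.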

Other observations

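A fat gene and a pair of the 70 other muscle genes set single animals apart. Lep, the fat hormone leptin, was highest on control array 1, at 6.14 against 4.99 to 5.73 on the other 5 arrays, the array that was also highest for the fast genes Myh4 and Pvalb. Mymk, the fusion protein of myoblasts, measured 7.13, 7.05 and 6.90 on the control and 6.68, 7.07 and 7.70 on the caNrf2 arrays, and Mybph, a myosin-binding protein, 8.45, 8.36 and 8.33 against 8.22, 8.71 and 9.26. These genes were chosen after their values were seen, and no explanation was tested.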
